A study of Homo sapiens with 3 samples.

Results

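The insulin and mTOR pathway was followed through 10 genes in H9, an established human embryonic stem cell line kept in pluripotent conditions. The genes are the receptors INSR and IGF1R, the kinase MTOR and its scaffold RPTOR, the brake TSC1 and TSC2, the switch RHEB, and the outputs RPS6KB1, EIF4EBP1 and EIF4EBP2. They were chosen by symbol, and 12 probe sets of 33297 on the array name 1 of them, which gives 10 genes of 18417 named genes. IGF1R and RHEB have 2 probe sets each and the other members have 1.

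RNA came from 3 sources of the same line, and the labels name no treatment or genetic change. These were RNA bound to polysomes, RNA of the same kind of extract that was free of polysomes (unbound), and total RNA. Each was measured on 1 array, so no difference below has a replicate check or a p-value. Polysomes are mRNAs that carry several ribosomes at once, and setting the bound array against the unbound array asks how each transcript is divided between these pools.

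Insulin and IGF1 bind receptor tyrosine kinases at the cell surface, which activate PI3K and AKT through adaptor proteins. AKT inactivates the complex of TSC1 and TSC2, and this leaves RHEB free to activate the MTOR kinase held by RPTOR. The kinase phosphorylates RPS6KB1, the S6 kinase, and the EIF4EBP proteins, which block the cap-binding factor EIF4E until they are phosphorylated. The mRNAs most sensitive to this control start with a terminal oligopyrimidine (TOP) tract, a C followed by a run of pyrimidines, and encode ribosomal proteins and elongation factors.

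The annotated transcript starts of the members were searched for the TOP tract. These starts come from annotation and were not measured in these cells, so they cannot decide whether the members' mRNAs carry it. The same reading did not find the tract in every ribosomal protein gene. Each line runs 5′ to 3′ on the transcript's strand over 10 bases before and 20 bases from the start, from RefSeq on GRCh38.p14, and the capitals mark the first 5 transcribed bases, where a TOP tract would lie. RPS6 and EEF2, a ribosomal protein and an elongation factor of the pathway's target class, are given first for comparison. Of the other ribosomal protein genes read for comparison, RPS21 also begins with the tract, and RPL10A and RPL13 do not. The members printed are INSR and those with a tract within 5 bases of the start. RPTOR, TSC1, RHEB and RPS6KB1, which like INSR have none there, are not printed.
RPS6 (chr9:19380217-19380246, minus strand): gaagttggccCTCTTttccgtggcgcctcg
EEF2 (chr19:3985444-3985473, minus strand): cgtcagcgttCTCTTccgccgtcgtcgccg
INSR (chr19:7294395-7294424, minus strand): ttcctaggccAGATCcgcgccgccttttcc
IGF1R (chr15:98648529-98648558, plus strand): gcgagcccccAGTGTgtggcagcggcggcg
MTOR (chr1:11262532-11262561, minus strand): tccttccctcGCTCCcggcttagaggacag
TSC2 (chr16:2047975-2048004, plus strand): tgcgggtcgcGCTTCcggcggcgtcccggg
EIF4EBP2 (chr10:70404135-70404164, plus strand): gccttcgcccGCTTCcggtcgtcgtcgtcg

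RPS6 and EEF2 start with C and continue with pyrimidines, for a run of 9 and 7 bases. Of the 9 members in the table, 0 began with a C followed by at least 4 pyrimidines, and each of the 9 began with A or G. The tract was searched on the transcript's strand only. It was at the start of 5.38% of 9599 protein-coding genes past the level filter and of 33 of 48 cytosolic ribosomal protein genes (68.8%). With so low a share over all genes, 0 of 9 does not set the members apart from the typical gene. If the tract could begin up to 5 bases before or after the annotated start, 4 members held it, IGF1R, MTOR, TSC2 and EIF4EBP2, against 22.9% of the 9599 genes and 85.4% of the ribosomal protein genes. MTOR, TSC2 and EIF4EBP2 have a G at the annotated start and a run of pyrimidines directly after it. In IGF1R the run lies wholly before the annotated start and so outside the annotated transcript. The wider window was chosen after the data were seen, and a match is a description of letters.

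The arrays differ in overall brightness, so a difference can be read in more than 1 way. The median log2 value of 12057 genes past a filter on level was 7.23 in bound RNA, 5.97 in unbound RNA and 6.20 in total RNA. A relative difference, used below, is the log2 difference between 2 arrays minus the difference of these medians, which is 1.26 for bound minus unbound, 1.03 for bound minus total and -0.23 for unbound minus total. Background on each array was the 95th percentile of 480 tissue-restricted genes such as olfactory receptors, at 4.40, 3.56 and 3.76. In total RNA 63.6% of all named genes were above it. So were 27 of 31 measured pluripotency genes, among them SOX2 (9.50), LIN28A (11.10) and DNMT3B (9.04). The same held for 16 of 19 germ layer, 9 of 12 trophoblast and amnion, and 12 of 14 fibroblast markers. These counts do not tell the marker classes apart. All 10 members passed the filter on level, as did 12057 of 18417 named genes. All 12 probe sets were above background on each array, against 64.9% (bound), 63.1% (unbound) and 63.6% (total) of named genes. The sources used here give no amount of RNA per pool, and in bulk RNA fewer cells with a transcript and less of it per cell cannot be told apart.

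With centred arrays 9 of the 10 members had a higher bound minus unbound difference than the typical gene of these cells, and EIF4EBP2 had a lower one. INSR was the furthest toward polysomes among the probe sets that stand for the genes, and the second IGF1R probe set was further (2.13). The relative difference of bound minus unbound was above 0 for 9 of 10 members, against 46.2% of all 12057 genes. For IGF1R (0.23), TSC2 (0.23), RHEB (0.30) and RPS6KB1 (0.35) it was under the upper quartile of all genes, 0.40. INSR alone passed 2-fold toward polysomes, 1 of 10 against 6.36% of all genes, and 0 of 10 passed it on the other side, against 9.91%. The median over the members was 0.50, against -0.07 over all genes. As deposited, without centring, all 10 members were higher on the bound array, against 93.8% of all genes. The difference then reached 2-fold for 9 of 10, against 61.4%, and 0 were 2-fold lower, against 1.56%. After quantile normalization 2 of 10 reached 2-fold, INSR and MTOR, against 10.8% of all genes. With the mean of a gene's probe sets 2 of 10 did, INSR and IGF1R, against 6.43%. At a threshold of 1.5-fold with centred arrays 5 of 10 were higher, against 17.7%, and 1 was lower, EIF4EBP2, against 22.1%.

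**Figure D1:**
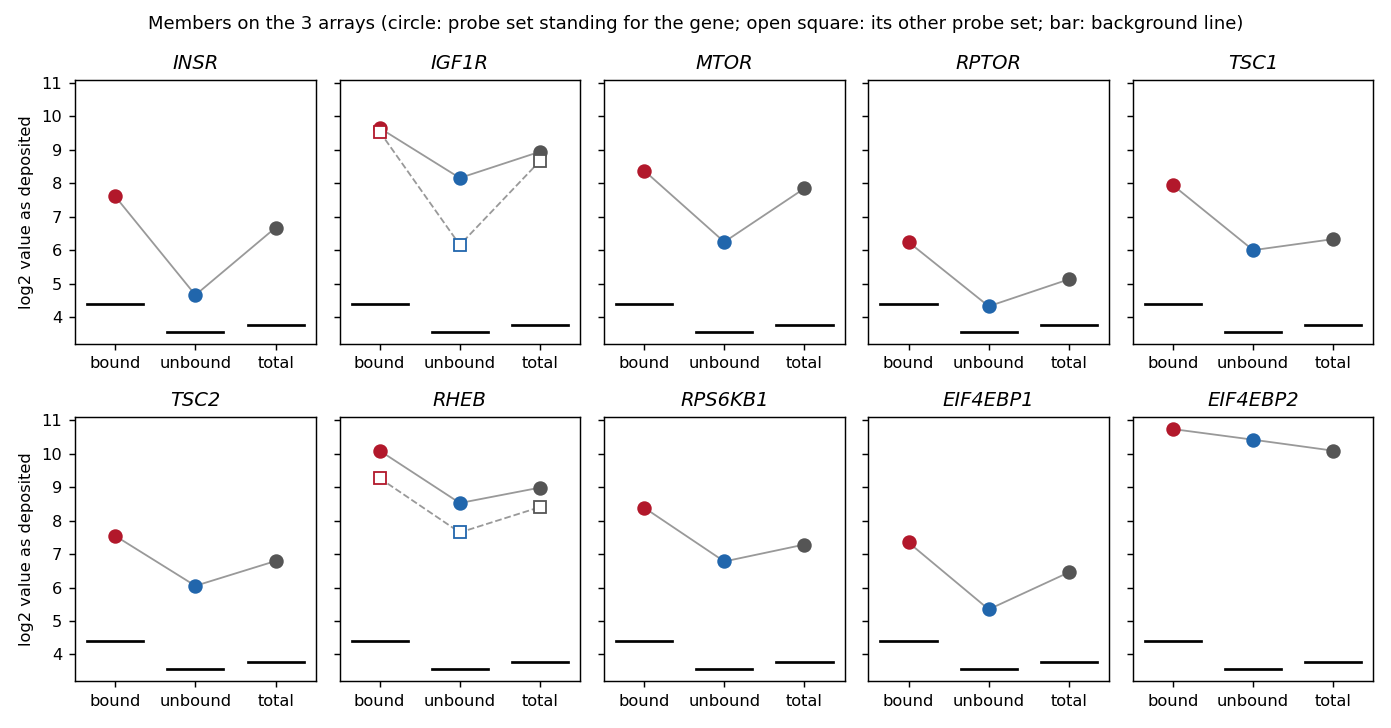
Log2 values as deposited (vertical axis) of each member on the bound, unbound and total RNA arrays, 1 array each. Circles are the probe set that stands for the gene, open squares its other probe set, and black bars the background line of each array. The unbound value is the lowest of the 3 for each member except EIF4EBP2, and the probe sets of IGF1R part on the unbound array only.

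The receptors head the pathway. INSR, the insulin receptor, had log2 values of 7.61 in bound, 4.66 in unbound and 6.67 in total RNA. It was low in unbound RNA alone, where it was 1.09 above background. The relative bound minus unbound difference was 1.69 (3.23-fold), higher than in 99.4% of the 12057 genes, and 2.95 as deposited. Relative to total RNA, INSR was close to the typical gene in bound RNA (-0.10) and was lower in unbound RNA, by a relative difference of -1.78.

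IGF1R, the receptor for insulin-like growth factors and the closest paralog of INSR, gave different answers on its 2 probe sets. The brighter probe set read 9.65 in bound, 8.16 in unbound and 8.95 in total RNA. The other read 9.55, 6.16 and 8.67. The values were near each other in bound and total RNA, and they parted in unbound RNA. The relative bound minus unbound difference was therefore 0.23 on the first and 2.13 on the second, a gap of 1.90. Among 364 genes with exactly 2 probe sets past the level filter the median gap was 0.18, and 13 genes, IGF1R included, had a gap at least this wide. The brighter probe set stands for the gene in all counts. INSR exceeded it by 1.46 in the bound minus unbound difference, and INSR at 1.69 was below the second probe set. The second probe set lists 5 accessions that the brighter one lacks, and which part of the transcript each covers was not analysed here.

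The kinase and its scaffold form the core of the complex. MTOR, the kinase, had values of 8.38 in bound, 6.25 in unbound and 7.85 in total RNA, and was lowest in unbound RNA. Its relative bound minus unbound difference of 0.87 (1.83-fold, and 1.01 after quantile normalization) was higher than in 91.1% of genes. RPTOR, which presents substrates to the kinase, had 6.24, 4.32 and 5.13, and lay closest to background of all members, 0.76 above it in unbound RNA. Its relative difference was 0.66 (1.58-fold), higher than in 84.8% of genes. MTOR and RPTOR differed by 0.21 here, and further apart in unbound minus total RNA, at -1.37 for MTOR and -0.57 for RPTOR.

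TSC1 and TSC2 together hold RHEB in its inactive state. TSC1, the stabilising partner, had 7.94 in bound, 6.00 in unbound and 6.33 in total RNA. The relative difference was 0.68 for bound minus unbound and 0.58 for bound minus total. Neither was large enough to count as apart. The bound minus total value was the highest among the members with centred arrays. TSC2, which carries the activity toward RHEB, had 7.55, 6.05 and 6.79, with total RNA midway. Its relative differences were 0.23 for bound minus unbound and -0.28 for bound minus total, so the pair differed by 0.86 in the latter.

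RHEB, the small GTPase that switches the kinase on, had values of 10.10 in bound, 8.53 in unbound and 8.99 in total RNA on its brighter probe set. The other probe set read 9.27, 7.65 and 8.41. Here the probe sets gave nearly the same relative bound minus unbound difference, 0.30 and 0.36. Which locus each probe set covers was not analysed here, so this closeness does not show that both read the same transcript. RHEB stood above 70.5% of genes, and its 3 centred levels spanned 0.30, the narrowest range among the members. That rank held for centred arrays only, since the largest of its 3 differences was 0.53 with the trend on level removed and 0.70 after quantile normalization, against 0.29 and 0.45 for RPS6KB1.

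RPS6KB1, the S6 kinase that phosphorylates ribosomal protein S6, had 8.39 in bound, 6.78 in unbound and 7.29 in total RNA. The relative bound minus unbound difference was 0.35, higher than in 72.5% of genes, and the bound minus total difference was 0.07. Its centred levels spanned 0.35.

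The EIF4EBP genes encode the translational repressors that the kinase switches off, and they parted. EIF4EBP1 had values of 7.35 in bound, 5.35 in unbound and 6.45 in total RNA, and was lowest in unbound RNA. Its relative bound minus unbound difference was 0.74 (1.67-fold), higher than in 87.4% of genes. EIF4EBP2 had 10.74, 10.42 and 10.09, and unbound RNA was here above total RNA. The relative bound minus unbound difference was -0.94, higher than in only 11.0% of genes. It was 0.32 as deposited, -0.29 with the trend on level removed and -0.0038 after quantile normalization, so its side of 0 depends on the scaling. The median over all genes was 1.20 as deposited, -0.0050 with the trend removed and 0.13 after quantile normalization, each above the value of EIF4EBP2. The difference between EIF4EBP1 and EIF4EBP2 was 1.68 with the arrays centred or as deposited, 0.97 with the trend removed and 0.88 after quantile normalization. EIF4EBP2 was the lowest member under each of these 4 scalings. EIF4EBP3, the third repressor, has no probe set that lists it alone and was not analysed here.

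**Figure D2:**
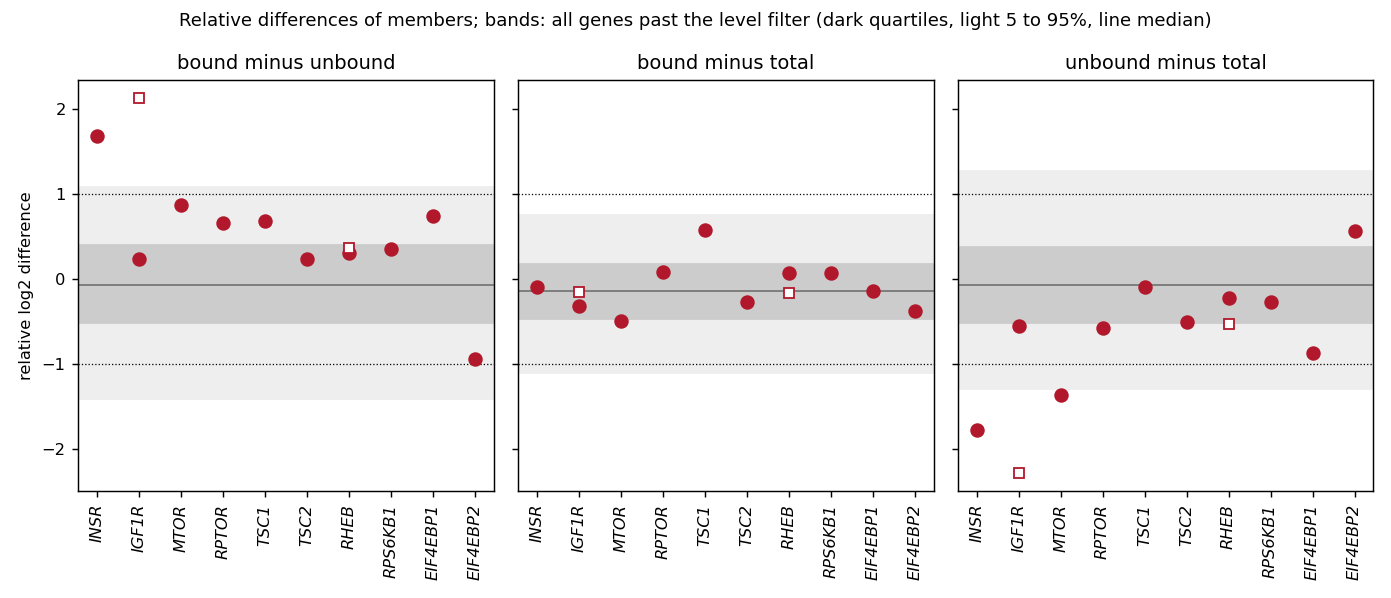
Relative log2 differences (vertical axis) of the 10 members in the 3 comparisons. Circles are the probe set that stands for the gene and open squares the other one; bands give the range of 12057 genes (5% to 95% light, the quartiles dark), and dotted lines mark 2-fold. The circle of INSR lies above the light band on the left, and the circles of INSR and MTOR lie below it on the right. The open square of IGF1R lies further out in both panels, at 2.13 and -2.28. In the middle panel all members lie within the light band.

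Bound RNA was also set against total RNA, which asks how far the polysome pool mirrors the transcripts of the cell. Total RNA was purified with another column kit than the polysome pools, and the effects of kit and RNA source cannot be told apart in this comparison or the next, which share the total RNA array. In this comparison 0 of 10 members reached 2-fold toward bound RNA, against 2.66% of all genes, and 0 of 10 toward total RNA, against 6.43%. The relative differences ran from -0.50 (MTOR) to 0.58 (TSC1), with a median of -0.12 against -0.14 over all genes. Above 0 were 4 members, RPTOR, TSC1, RHEB and RPS6KB1, against 37.8% of all genes. IGF1R and EIF4EBP2 changed side with the scaling, to 0.08 and 0.29 with the trend on level removed and to 0.15 and 0.45 after quantile normalization. As deposited all 10 were positive, from 0.53 to 1.61, against 94% of all genes. Of these 4 reached 2-fold, against 40.1%, and 0 were 2-fold lower, against 0.572%.

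Unbound RNA was set against total RNA in the same way. At least 2-fold lower in unbound RNA were 2 of 10 members, INSR (-1.78) and MTOR (-1.37), against 10% of all genes, and 0 were at least 2-fold higher, against 8.08%. INSR also passed 3-fold, 1 of 10 against 2.62%. The second IGF1R probe set was lower still, at -2.28, and the mean of both brought IGF1R to -1.43. EIF4EBP1 followed at -0.88. As deposited 3 members were 2-fold lower, with EIF4EBP1 at -1.11 as the third, against 16% of all genes, and 0 were 2-fold higher, against 5.42%. EIF4EBP2 (0.56) was the only member above 0 with centred arrays, against 45.4% of all genes, and also as deposited, against 31.6%. With the trend on level removed RHEB was above 0 as well, at 0.09. The median over members was -0.53, against -0.07 over all genes. The order of the centred levels was total, bound, unbound for INSR, IGF1R, MTOR, TSC2 and EIF4EBP1. It was bound, total, unbound for RPTOR, TSC1, RHEB and RPS6KB1, and unbound, total, bound for EIF4EBP2. With 1 array per source there is no spread against which neighbours in these orders could be told apart.

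Other genes of the pathway were taken from lists by role, and the counts cover genes past the level filter. The ligands and their binding proteins had the highest list median for bound minus unbound, 1.10 over 6 genes, of which 4 reached 2-fold toward polysomes, against 6.36% of all genes, and 0 the opposite, against 9.91%. With no level filter the median was 0.59 over 10 genes. IGFBP5 (1.68) and IGFBP2 (1.30), secreted carriers of insulin-like growth factors, were highest, and IGFBP3 (0.36) and IGFBP7 (0.66) lowest. IGF2R, which takes up IGF2 for degradation, had 1.13. IGF1 was not above background on any array, and INS and IGF2 have no probe set that lists them alone and were not analysed here. As deposited 6 of 6 reached 2-fold toward polysomes, against 61.4% of all genes.

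Of 26 receptor adaptors, PI3K and AKT genes, 5 reached 2-fold toward polysomes, against 6.36% of all genes, and 1 the opposite, against 9.91%, with a median of 0.37. As deposited the counts were 20, against 61.4%, and 0, against 1.56%. The 1 gene on the opposite side, SHC1, did not reach 2-fold after quantile normalization or with the trend on level removed, where the count was 0. The adaptor GRB2 (1.37) and the PI3K gene PIK3C2B (1.33) were highest, and the adaptors SHC1 (-1.10) and GRB14 (-0.74) lowest. IRS1, the main docking protein of both receptors, had 0.83 and IRS4 0.14. IRS2 was not above background in unbound RNA (3.51), and its bound value of 5.15 exceeded the unbound background line by 1.59 log2 units, a lower bound of the difference as deposited. With centred arrays the relative difference of IRS2, from this unbound value, was 0.38, below that of IRS1. The kinases AKT1 (0.39) and AKT2 (0.44) were close to RPS6KB1.

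Among 8 partners in the mTOR complexes 0 were at least 2-fold higher, against 6.36% of all genes, and 1 was lower, against 9.91%, with a median of 0.04. As deposited 5 were higher, against 61.4%, and 0 lower, against 1.56%. With no level filter MLST8 did not reach 2-fold, and 0 were lower. RICTOR (0.82), the scaffold of the second mTOR complex, and MAPKAP1 (0.55), another subunit of it, were highest. MLST8, the small subunit shared by both complexes, was lowest at -1.03, on the opposite side to MTOR and RPTOR, with values of 7.13 in bound, 6.90 in unbound and 6.35 in total RNA. PRR5L followed at -0.61. As deposited MLST8 was 0.23 higher in bound RNA.

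The 28 amino acid sensing genes hold both activators of the kinase at the lysosome, such as the Rag GTPases, and inhibitors of that step. Their median was 0.04, with 1 at least 2-fold higher, against 6.36% of all genes, and 1 lower, against 9.91%. As deposited the counts were 22, against 61.4%, and 0, against 1.56%. With no level filter 2 were higher, after quantile normalization 3 were, and with the trend removed 2 were higher and 2 lower. FNIP2 (1.57), a partner of folliculin, and the Rag GTPase RRAGC (0.96) were highest. SAMTOR, a sensor of S-adenosylmethionine, was lowest at -2.11 and was also lower as deposited, by a difference of -0.85, followed by the Rag GTPase RRAGA at -0.96. Of 19 genes that carry energy and stress signals to TSC, 1 was at least 2-fold higher, against 6.36% of all genes, and 1 lower, against 9.91%, with a median of 0.18. As deposited 13 were higher, against 61.4%, and 0 lower, against 1.56%. The count lower was 0 after quantile normalization or with no level filter, and the count higher was 0 with the trend removed. The kinases RPS6KA3 (1.02) and GSK3A (0.83) were highest, and the AMPK subunits PRKAG1 (-1.08) and PRKAG2 (-0.94) lowest. DDIT4, a stress-induced inhibitor of the pathway, had 0.20.

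The targets of the kinase and their partners include TOP mRNAs. Of 27 genes 5 reached 2-fold away from polysomes, against 9.91% of all genes, and 1 toward them, against 6.36%, with a median of -0.04. As deposited 2 were lower, against 1.56%, and 16 higher, against 61.4%. After quantile normalization 2 were lower and 3 higher, with the trend removed 3 were lower and 1 higher, and with no level filter 2 were higher. RPS6 (-2.49) and EEF2 (-2.27), both with a TOP tract at the start as printed above, were lowest. EIF4B, EIF4A2 and RPS6KB2 were the others past 2-fold on that side with centred arrays. RPS6KB2, the second S6 kinase, had -1.14 where RPS6KB1 had 0.35, and 0.13 against 1.61 as deposited. ULK2 (1.04), a kinase of autophagy, and LARP1 (0.95), which binds the TOP tract, were highest. EEF2K, the kinase of EEF2, had 0.18 and PDCD4, an inhibitor of the helicase EIF4A, -0.59. EIF4E was not above background on any array, with 3.67 in bound, 3.10 in unbound and 3.43 in total RNA. Only probe sets that list 1 symbol were used, and whether this signal reports the EIF4E mRNA was not tested. These values do not show that the transcript is absent.

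**Figure D3:**
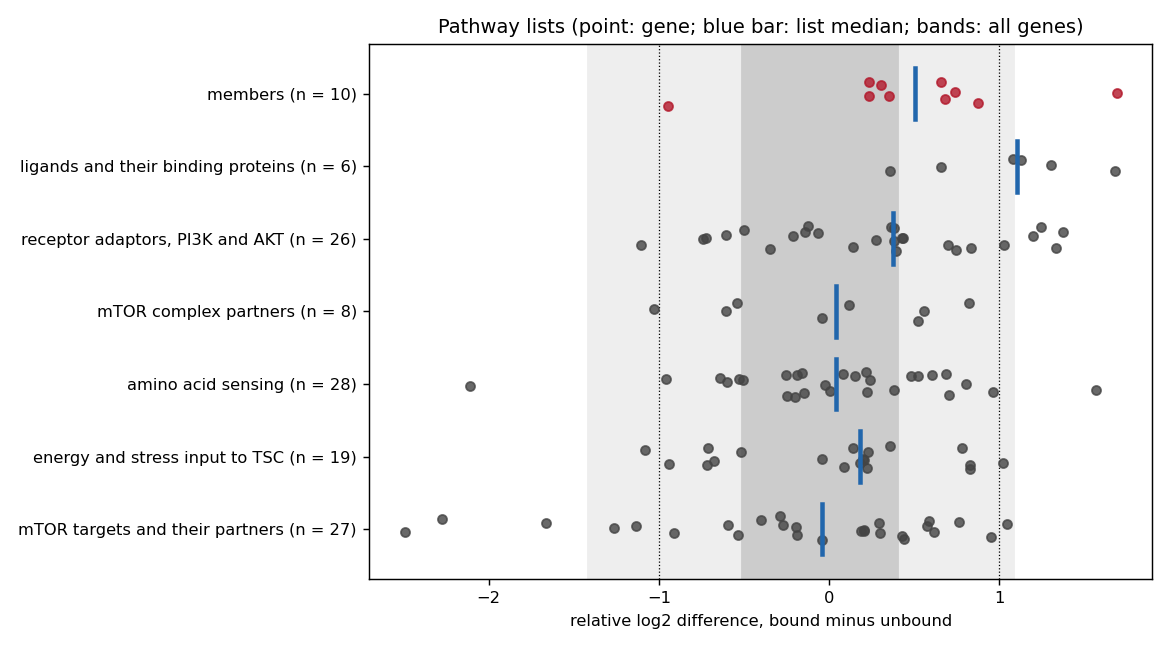
Relative bound minus unbound log2 differences (horizontal axis) of the members and of the 6 lists of other pathway genes, 1 point per gene past the level filter. Blue bars are list medians, bands the range of 12057 genes (5% to 95% light, the quartiles dark) and dotted lines 2-fold; the lowest points are RPS6, EEF2 and SAMTOR.

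The members can be set beside the mRNAs they are known to control. The 57 cytosolic ribosomal protein mRNAs past the filter had a median relative bound minus unbound difference of -2.59 with centred arrays, against 0.50 for the members. It was -1.33 as deposited against 1.77, -1.75 with the trend removed against 0.54, and -1.55 after quantile normalization against 0.75, and this contrast has no test. The highest of the 57 was -1.51 with centred arrays, below all 10 members, and -0.0030 with the trend removed, above EIF4EBP2. For each member the gene with the most similar centred values over the 3 arrays was sought among all genes past the filter, by Euclidean distance in log2 units. EIF4EBP2 was nearest to CHP1 (distance 0.16) and INSR to NDUFA8 (0.24), and 11 and 16 genes lay within 0.5 of them. MTOR was nearest to HPF1, RPTOR to RBFA, TSC1 to SETD7, TSC2 to CDKN2AIPNL, RHEB to METTL2B, RPS6KB1 to BPGM, EIF4EBP1 to MRPL19 and IGF1R to PSME3, at distances from 0.065 to 0.13. These members had between 126 and 468 genes within 0.5. The distance counts level as well as pattern, and the typical number of such neighbours over all genes was not computed.

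**Figure D4:**
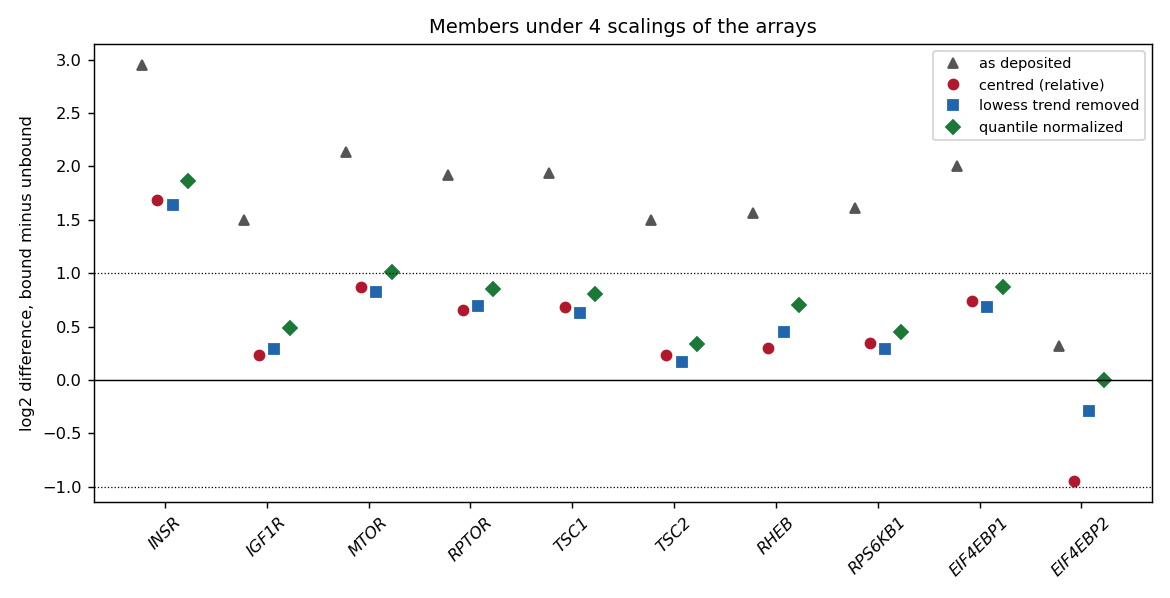
Bound minus unbound log2 differences (vertical axis) of each member under 4 scalings of the arrays; dotted lines mark 2-fold. INSR stays above 1.6 under all 4, and EIF4EBP2 is the lowest member under each, above 0 as deposited and below 0 under the others.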

How the data were processed

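Log2 values as deposited by the authors were used, 1 for each probe set on each of 3 arrays. RMA and Partek 6.5 stand in the submitters' processing notes. How the arrays were scaled to each other is not given, and the columns do not share a distribution. All 33297 values of the bound column have 7 decimals, against at most 5 in the others. Genes were named from GEO's platform annotation: 19460 probe sets list 1 symbol, 1754 several and 12083 none, and only the first kind was used. Gene IDs of 19429 matched RefSeq. The probe set with the highest mean stood for a gene. Genes whose mean exceeded 3.84, the 95th percentile over 480 tissue-restricted genes, entered the comparisons. Apart means a 2-fold difference, with no test. The 10 members were named in full, with the 2 highest and 2 lowest genes of each list, partners of members set beforehand, and the nearest gene of each member. EIF4B and EIF4A2 were named after their values were seen. Members and lists were chosen with earlier results of these data known. Transcript starts came from RefSeq on GRCh38.p14, which held 9 members; EIF4EBP1 was not matched. Alternatives were no centring, quantile normalization, removal of a lowess trend (span 0.3), other level filters, the mean of a gene's probe sets, and 1.5-fold and 3-fold thresholds. The scripts were tested on simulated data. The number of arrays limits the precision. Tools were pandas 2.3.3, numpy 2.4.6 and statsmodels 0.14.6 under Python 3.11.15, and figures used matplotlib 3.10.9.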

Additional observations from a re-analysis of the deposited data

How the results depend on the processing

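With 1 array per source there is no error for any value, and signal over background was smallest for RPTOR and INSR in unbound RNA. For bound minus unbound, the count of members at least 2-fold higher was 1 with centred arrays, 9 as deposited, 2 after quantile normalization, 2 with the mean of a gene's probe sets, and 5 at a threshold of 1.5-fold, where 1 member was lower. The median over members was 1.77 as deposited. For bound minus total, 4 members were higher as deposited, with a median of 0.91. For unbound minus total, 1 member was lower at a threshold of 3-fold, against 2. Other counts and medians over the members stayed within 1.5-fold under the alternatives run, and no member past 2-fold changed sign. Of the 10 single members in bound minus unbound, 10 moved by over 1.5-fold or across 2-fold as deposited, 2 after quantile normalization, 1 with the trend removed and 1 with the mean of probe sets. The cause of these shifts is the scaling or threshold itself, and for the mean of probe sets the second IGF1R probe set, which brought IGF1R to 1.19. No paired analysis was possible because each group has 1 array.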

Other observations

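Over all protein-coding genes past the level filter that have a RefSeq start, the 516 with a TOP tract at the annotated start had a median relative bound minus unbound difference of -0.49, against -0.02 for the 9083 without it. With ribosomal protein genes left out, 483 genes with the tract had a median of -0.44. These are descriptions of 1 pair of arrays, and the tract was read from 1 annotated start per gene.

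The bound minus unbound difference also varied with the genomic span of genes. Spearman's rho across the 9599 genes was 0.21, and it was 0.47 across 9 members, from EIF4EBP2 (24.5 kb) to RPTOR (422 kb). The genes share the same arrays and are not independent replicates.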
